A study of Mus musculus with 6 samples.

Results

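The platelet-derived growth factor (PDGF) family was examined through its 6 genes, the 4 ligands Pdgfa, Pdgfb, Pdgfc and Pdgfd and the 2 receptors Pdgfra and Pdgfrb. The members were chosen by gene name, and all 6 were found among the 17556 genes of the table and passed the filter on low counts, with 13817 genes tested in all. RNA came from whole left ventricles of 6 mice aged 6 to 10 weeks, 4 days post injury (dpi), after permanent ligation of the left anterior descending artery. The 3 Cre positive mice carried MerCreMer, a tamoxifen-inducible Cre, in one copy at the endogenous periostin gene (Postn MCM), together with floxed Yap on both alleles and floxed Wwtr1 on one allele. The 3 Cre negative mice were siblings with the same floxed alleles and wildtype periostin. All 6 received tamoxifen citrate in the diet from the time of surgery, so the floxed alleles, the drug and the infarct were shared by both groups. The design directed excision to cells that use the periostin promoter, which marks myofibroblasts, while the RNA came from every cell of the ventricle. Excision itself was not measured here. No uninjured heart and no mouse with Cre but without floxed alleles was among the samples analysed here. Cre itself, the altered copy of the periostin gene and the deletion therefore cannot be told apart. Each library was labelled as a separate replicate, and p-values measure the spread between these libraries.

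PDGF ligands are secreted dimers that bind 2 receptor tyrosine kinases at the cell surface. The A chain and the C chain act through PDGF receptor alpha, the D chain acts mainly through PDGF receptor beta, and the B chain binds both. The A and B chains are processed inside the cell, whereas the C and D chains are secreted with a CUB domain that proteases remove before the ligand can bind. In the heart, Pdgfra is a classical marker of fibroblasts and Pdgfrb of pericytes and vascular smooth muscle, and the B chain made by endothelium and platelets recruits mural cells to vessels. Yap and Wwtr1 (Taz) hold no DNA-binding domain of their own and reach DNA through TEAD factors, which bind GGAATG.

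The start region of Pdgfc is shown because it was the only one among the members with a start-site window in which these letters occurred. RefSeq windows on GRCm38.p6, from 250 bases before a start site to 50 after it, were found for 4 of the 6 members, with 5 windows in all. The letters GGAATG or, on the other strand, CATTCC occurred 2 times in the window of Pdgfc and in none of the windows of Pdgfa, Pdgfd and Pdgfra. Of 32841 windows of 300 bases, 14.7% held at least 1 occurrence, 1.36% held at least 2 and 0.579% had one on each strand, as Pdgfc had. The 250 bases before the start site lay on the plus strand at chr3:81036166-81036415, and the 30 bases that hold the other occurrence lay at chr3:81036436-81036465. Capitals mark the motif letters.
Pdgfc, before the start site: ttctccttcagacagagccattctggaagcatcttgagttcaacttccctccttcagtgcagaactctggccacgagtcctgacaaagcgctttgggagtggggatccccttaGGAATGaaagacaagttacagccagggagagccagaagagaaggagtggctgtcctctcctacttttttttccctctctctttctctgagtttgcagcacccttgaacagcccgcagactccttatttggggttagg
Pdgfc, after the start site: ctgggggccgcctggcggCATTCCtcgccg
The occurrence before the start site ended 132 bases from it and the other began 39 bases into the transcript. No binding was measured in these samples, and a match describes the letters alone.

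Libraries held between 13177888 and 14827579 estimated counts. Cre negative 1 stood apart from the other 5. Its 8 cardiomyocyte markers summed to 65990 TPM (transcripts scaled to length and depth) against 45000 to 50870 in the others, its 9 fibroblast markers to 4749 against 6902 to 8826, its 5 smooth muscle markers to 481.3 against 873.5 to 1098, and its 6 neutrophil markers to 413.3 against 33.41 to 144.6. The cardiomyocyte markers showed heart muscle in every library but do not single out the left ventricle. The 3 atrial markers summed to between 55.01 and 2196 TPM. Scgb1a1, a marker of airway epithelium, reached 66.28 TPM in Cre positive 3 against 0.34 to 1.64 elsewhere. Each PDGF fold change is therefore given with and without Cre negative 1. In bulk RNA, fewer cells of a type and less RNA per cell cannot be told apart. The targeted genes did not differ detectably in whole ventricle. The log2 fold change, Cre positive over Cre negative, was 0.03 for Yap1 (adjusted p = 0.935, edgeR) and 0.05 for Wwtr1 (adjusted p = 0.876, edgeR). Postn, the driver locus, had 851.7, 1726 and 1882 CPM (counts scaled to depth) in the Cre negative ventricles and 888.4, 997.7 and 944.7 in the Cre positive ones, a log2 fold change of −0.66 (adjusted p = 0.714, edgeR). Without Cre negative 1, Postn passed the threshold, with a log2 fold change of −0.94 (adjusted p = 0.0182, edgeR). Cre positive mice carried MerCreMer in 1 copy of this gene, so the altered copy and the deletion cannot be told apart here.

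All 6 PDGF genes were expressed in the infarcted ventricle, and their levels spanned about one order of magnitude. On the TPM scale, which divides by transcript length and so allows genes to be set side by side, Pdgfrb was highest with a mean of 69.01 ± 15.14 (SD, n = 6 ventricles). Pdgfb followed with 60.29 ± 6.712, Pdgfa with 51.67 ± 7.901, Pdgfra with 24.31 ± 2.556, Pdgfc with 9.12 ± 2.316 and Pdgfd with 6.947 ± 0.5835. The order was the same in 5 of the 6 ventricles. In Cre negative 1, Pdgfb was above Pdgfrb and Pdgfd was above Pdgfc. Pdgfrb was above Pdgfb and Pdgfc above Pdgfd in 5 of 6 ventricles, and the ratios of their means over the 6 ventricles were 1.145 and 1.313. Pdgfb was above Pdgfa in 6 of 6, with a ratio of means of 1.167, while the values of these 2 genes overlapped across ventricles. The steps from Pdgfa to Pdgfra and from Pdgfra to Pdgfc were wider, with ratios of means of 2.125 and 2.666, and held in 6 of 6 ventricles. The step from Pdgfa to Pdgfra rests on the division by length, since by CPM Pdgfra (74.43 to 93.49) was above Pdgfa (34.26 to 42.88) in every ventricle.

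**Figure D1:**
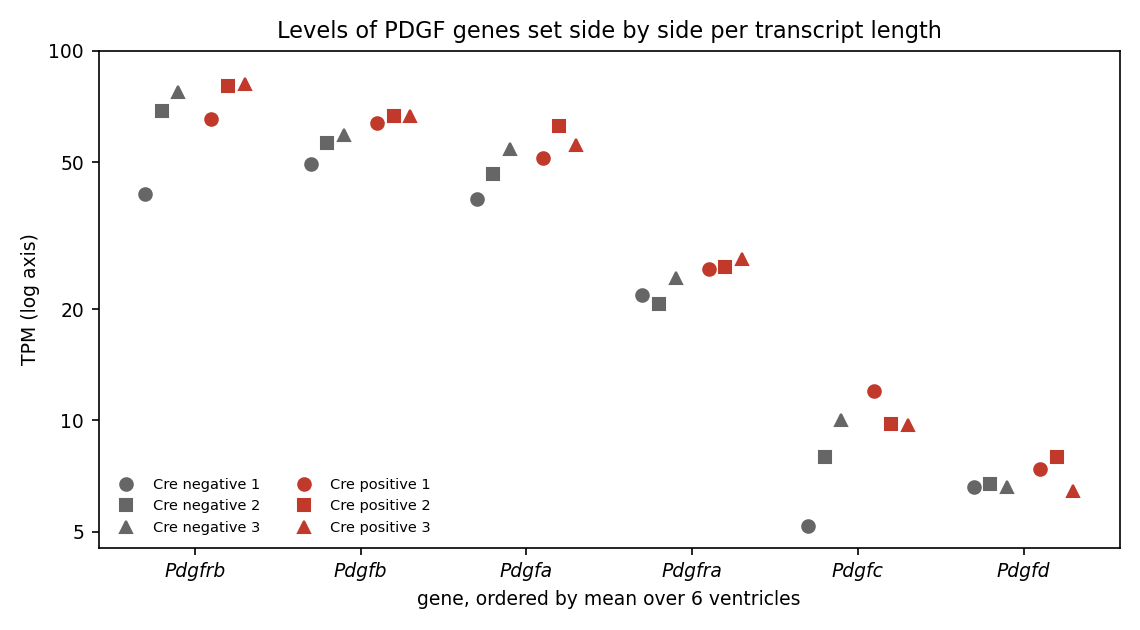
TPM of each PDGF gene on a log axis, with 1 point per ventricle, Cre negative in grey and Cre positive in red, and the marker shape giving the replicate number. Pdgfrb, Pdgfb and Pdgfa lie between 39.77 and 81.4 TPM and overlap each other, Pdgfra lies between 20.68 and 27.28, and Pdgfc and Pdgfd lie between 5.19 and 12.03.

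Among the ligands, the classical A and B chains made up most of the RNA and the protease-activated C and D chains little of it. Pdgfb was 47.47% ± 1.789 of the summed ligand TPM in the Cre negative ventricles and 46.93% ± 1.483 in the Cre positive ones (SD, n = 3 each). The share of Pdgfa was 40.2% ± 1.328 without Cre and 40.35% ± 2.215 with it. The share of Pdgfc was 6.547% ± 1.301 without Cre and 7.543% ± 1.226 with it, and its lowest and highest values, 5.134% and 8.944%, were those of Cre negative 1 and Cre positive 1. The share of Pdgfd was 5.78% ± 0.7339 without Cre and 5.181% ± 0.4597 with it, and ran from 4.652% in Cre positive 3 to 6.538% in Cre negative 1. For Pdgfa, Pdgfb and Pdgfc the means of the genotypes differed by less than the SD of either group, and for Pdgfd by less than the Cre negative SD but more than the Cre positive SD. The shares rest on the lengths used in the TPM values. Summed ligand RNA exceeded summed receptor RNA in every ventricle on the TPM scale, by a ratio of 1.276 to 1.606. By CPM, which does not divide by length, the ratio was 0.4932 to 0.6191, so the direction rests on the lengths.

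Between the genotypes, none of the 6 members passed the threshold. In the edgeR quasi-likelihood test 0 of 6 had an adjusted p under 0.05, against 0.00724% of all genes tested (1 gene, Gbp2b). DESeq2 and limma called none of the 6 either. At an unadjusted p under 0.05, 1 of 6 passed (Pdgfb), against 5.83% of all genes tested. The Cre positive ventricles all lay above the Cre negative ones for 1 of 6 members (again Pdgfb), against 7.55% of all genes. The log2 fold change was above 0 for 5 of 6 members, against 51.2% of all genes, and without Cre negative 1 the number was also 5 but for different members, since Pdgfrb turned below 0 and Pdgfd above it. On the TPM scale all 6 were above 0, where the median of all genes was itself shifted to 0.11. Of 8 cardiomyocyte markers 0 were called by edgeR and 0 were above 0, with a median log2 fold change of −0.31. For 4 of the 8 the Cre positive ventricles all lay below the Cre negative ones, against 6.85% of all genes. Without Cre negative 1 their median was −0.12, with 1 above 0.

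**Figure D2:**
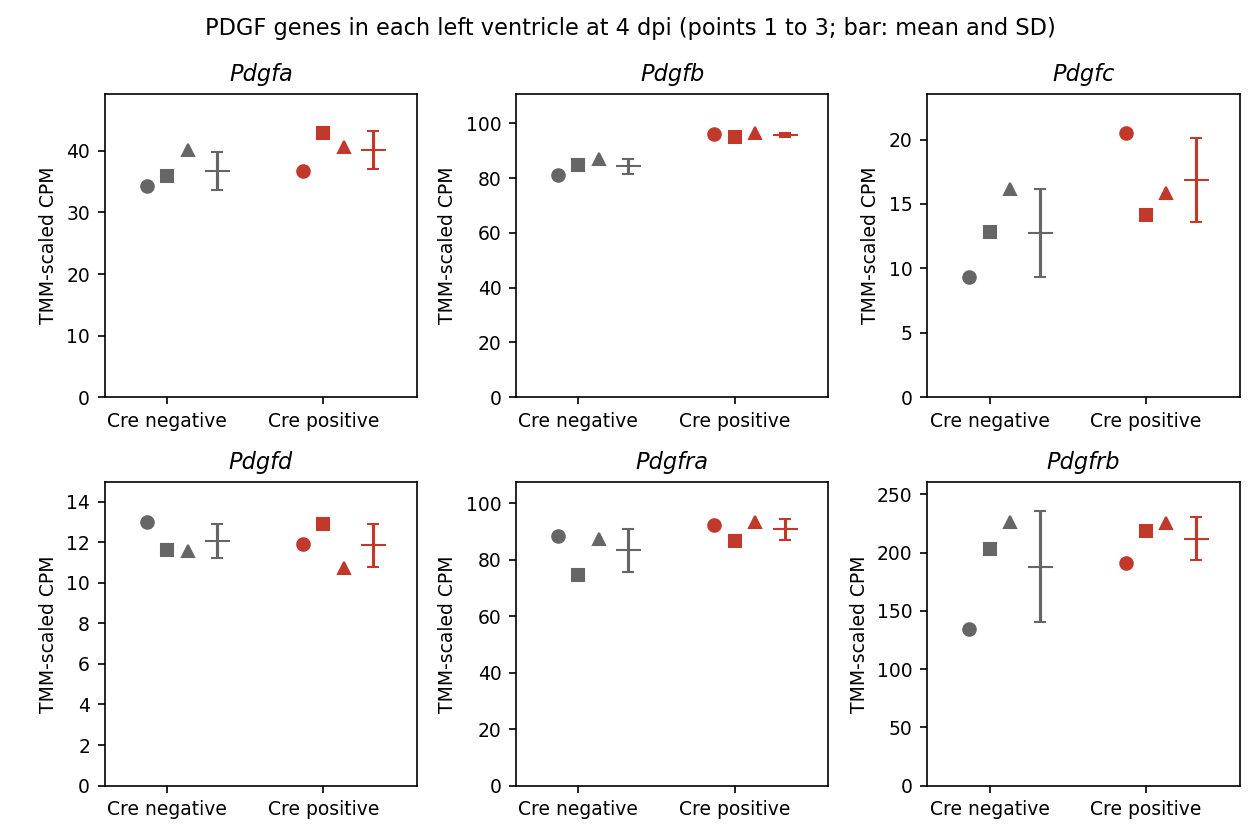
TMM-scaled CPM of the 6 genes, with 1 point per ventricle and the mean and SD (n = 3) beside each group, on axes that start at 0. Only for Pdgfb do the groups not overlap, with 81.28 to 86.89 CPM without Cre and 94.94 to 96.43 with it.

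Pdgfb (NCBI gene 18591), which encodes the B chain, lies at 79995865 to 80024614 on chromosome 15. It measured 81.28, 84.74 and 86.89 CPM in the Cre negative ventricles and 95.93, 94.94 and 96.43 CPM in the Cre positive ones. Every Cre positive value was above every Cre negative value. The log2 fold change was 0.18 (SE 0.08, unadjusted p = 0.0431, adjusted p = 0.714, edgeR), a ratio of 1.136 with a 95% interval of 1.005 to 1.284. The exact two-sided permutation test gave p = 0.1, the smallest that 3 against 3 allows. Without Cre negative 1 the log2 fold change was 0.15 (unadjusted p = 0.0608, adjusted p = 0.767, edgeR). With any 1 of the 6 ventricles left out, the unadjusted p of edgeR was 0.0608 to 0.116. Its estimated counts, 987.44 to 1468.13, were not whole in 5 of 6 ventricles, so some of its reads were divided with another feature. Cells that make the B chain were described by their markers. Of 7 endothelial markers 0 were called, and their sum was 520.6, 622.2 and 625 TPM without Cre and 619.8, 665.8 and 706.5 TPM with it. Their median log2 fold change was 0.04, with 4 above 0, and 0.008 without Cre negative 1. Of 6 platelet markers 0 were called, with sums of 219.7 to 328.6 TPM without Cre and 229.7 to 252.6 TPM with it. Most of that sum was Pf4, and the median log2 fold change of the 6 was −0.61, with 1 above 0, and −0.07 without Cre negative 1.

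Pdgfa (NCBI gene 18590), the A chain gene on chromosome 5 from 138976014 to 139000792, measured 34.26, 35.88 and 40.15 CPM without Cre and 36.74, 42.88 and 40.69 CPM with it. The groups overlapped, with Cre negative 1 lowest and Cre positive 2 highest. Its log2 fold change was 0.13 (SE 0.10, adjusted p = 0.733, edgeR), and the 95% interval of the ratio, 0.9265 to 1.284, held both a small decrease and a small increase. Without Cre negative 1 it was 0.07.

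Pdgfc (NCBI gene 54635), which encodes the C chain and spans 81036416 to 81214040 on chromosome 3, varied most among the ligands. It measured 9.306, 12.85 and 16.13 CPM without Cre and 20.5, 14.16 and 15.87 CPM with it. Cre positive 1 was highest and Cre negative 1 lowest, and the remaining 4 ventricles of both groups were interleaved. The coefficient of variation was 26.73% without Cre and 19.46% with it, while its 113 to 294 counts per library carry a counting error of 5.832% to 9.407%. Cre positive over Cre negative gave a log2 fold change of 0.40 (SE 0.22, adjusted p = 0.714, edgeR), with a 95% interval of the ratio from 0.9169 to 1.887. It was 0.21 without Cre negative 1, 0.23 without Cre positive 1 and 0.60 without Cre negative 3, and in the last case the unadjusted p of edgeR was 0.0312.

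Pdgfd (NCBI gene 71785), the D chain gene on chromosome 9 from 6168363 to 6534284, varied less than Pdgfc. It measured 13.01, 11.62 and 11.57 CPM without Cre and 11.92, 12.87 and 10.74 CPM with it. The highest value was a Cre negative one and the lowest a Cre positive one. A log2 fold change of −0.03 was fitted (SE 0.13, adjusted p = 0.961, edgeR), its 95% interval allowed ratios from 0.7967 to 1.212, and its sign turned without Cre negative 1 (0.03), without Cre positive 3 (0.04) and on the TPM scale. The 4 ligands thus gave 3 estimates above 0 and 1 near it, none beyond the spread between mice after adjustment.

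Pdgfra (NCBI gene 18595), the receptor of the A, B and C chains, lies on chromosome 5 from 75151322 to 75198206. It measured 88.28, 74.43 and 87.23 CPM without Cre and 92.3, 86.59 and 93.49 CPM with it. The groups overlapped through Cre positive 2, and Cre negative 2 was lowest. This gave a log2 fold change of 0.12 (SE 0.10, adjusted p = 0.726, edgeR), with a 95% interval of the ratio from 0.9342 to 1.272. Without Cre negative 1 it was 0.16, and without Cre negative 2 it was 0.05. On the TPM scale, which moved the median of all genes up, its groups did not overlap, with 20.68 to 24.3 TPM without Cre and 25.71 to 27.28 TPM with it. In Cre negative 1, where the summed fibroblast markers were lowest, Pdgfra was in the middle of the 6 values by CPM (88.28) and the second lowest by TPM (21.9). Of the 9 fibroblast markers 0 were called, and their sums were 4749, 7714 and 6902 TPM without Cre and 8752, 7679 and 8826 TPM with it. Most of each sum came from collagen genes. The median log2 fold change of the 9 was 0.10, with 6 above 0, and 0.05 without Cre negative 1.

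Pdgfrb (NCBI gene 18596), the receptor of the B and D chains, lies on chromosome 18 from 61045127 to 61085067. It measured 134.4, 202.8 and 226.5 CPM without Cre and 191.1, 218.5 and 225.7 CPM with it. Cre negative 1 was far below the other 5, whose groups overlapped, and the highest value was also Cre negative. The log2 fold change was 0.17 (SE 0.19, adjusted p = 0.788, edgeR), with a 95% interval of the ratio from 0.8341 to 1.522. Without Cre negative 1 it was −0.02 (SE 0.09, adjusted p = 0.979, edgeR), so the direction rested on that ventricle. The same ventricle was lowest in the summed smooth muscle markers, 481.3 TPM against 873.5 to 1098, where it was lowest for 5 of 5. On the TPM scale it was also lowest in the summed pericyte markers, 360.6 TPM against 379 to 492.4, but for only 3 of the 7 single markers. By CPM this ventricle was not lowest in the pericyte sum, nor for every smooth muscle marker. The part of these cells in the level of Pdgfrb was not tested.

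**Figure D3:**
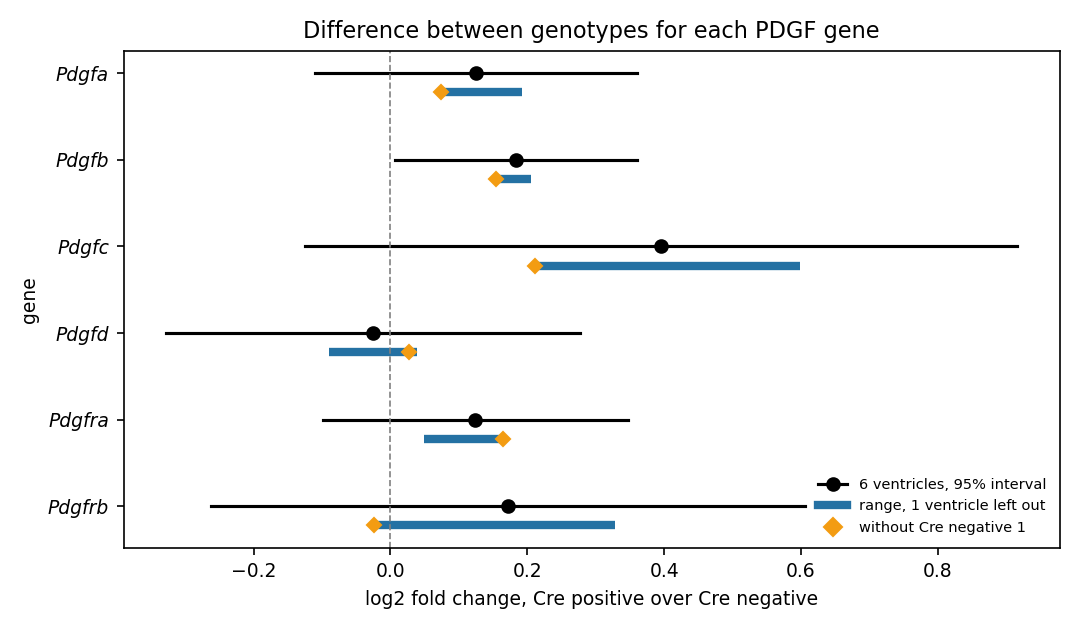
Log2 fold change of each gene, Cre positive over Cre negative, with its 95% interval (black, edgeR, 6 ventricles), the range when 1 ventricle is left out (blue bar) and the value without Cre negative 1 (orange diamond). The intervals of 5 genes include 0, that of Pdgfb runs from 0.007 to 0.36, and the diamond of Pdgfrb lies at −0.02.

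The balance of the 2 receptors showed the same ventricle standing apart. The ratio of Pdgfra to Pdgfrb on the TPM scale, a measure within a library that needs no scaling between libraries, was 0.5332, 0.3011 and 0.3147 without Cre and 0.3938, 0.3234 and 0.3351 with it. Cre negative 1 was highest, and the other 2 Cre negative ventricles lay below all 3 Cre positive ones. The means were 0.383 ± 0.1303 without Cre and 0.3508 ± 0.03772 with it (SD, n = 3 each), a difference smaller than the spread between siblings. The log2 ratio was 0.08 lower with Cre over all 6 ventricles and 0.18 higher without Cre negative 1.

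**Figure D4:**
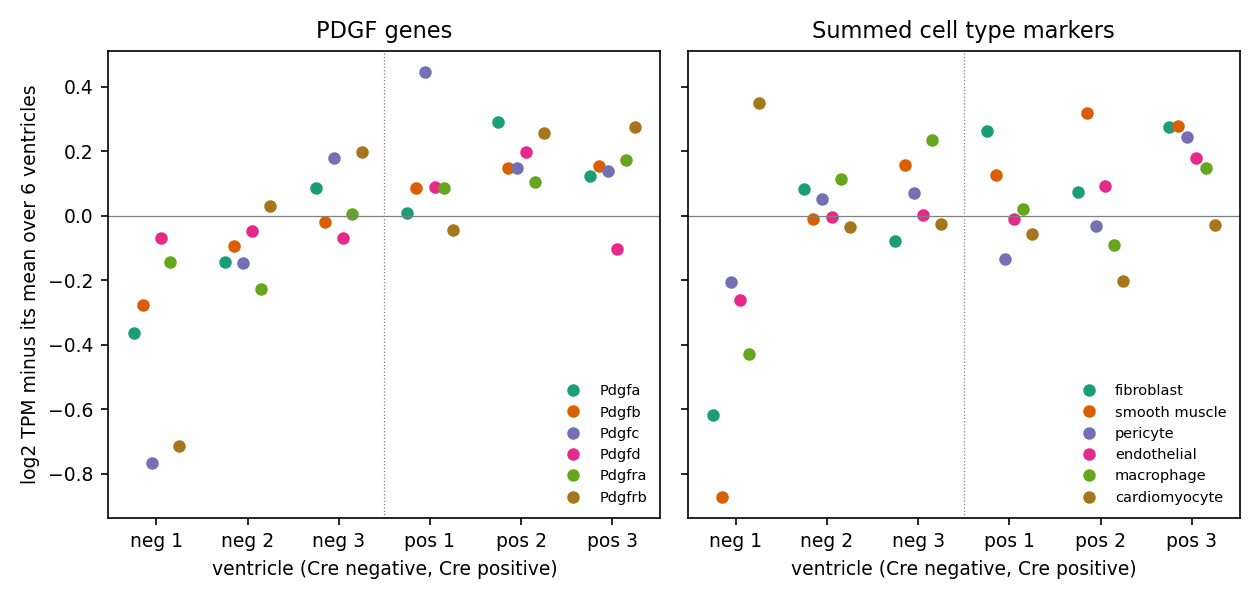
Log2 TPM of the 6 PDGF genes (left) and of 6 summed marker lists (right) in each ventricle, each minus its own mean over the 6 ventricles (neg, Cre negative; pos, Cre positive). In neg 1, 4 of the 6 genes are lowest (Pdgfa 39.77, Pdgfb 49.53, Pdgfc 5.19 and Pdgfrb 41.07 TPM), as are the smooth muscle and fibroblast sums, and the cardiomyocyte sum is highest.

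The genes with the most similar profile over the 6 ventricles were found for each member. For each, the 2 genes with the smallest root mean square difference of centred log2 CPM were taken among 13437 genes with a mean of at least 1 CPM. These were Ncoa5 and Pak2 for Pdgfa, Mettl3 and Senp5 for Pdgfb, Grin2c and Nos2 for Pdgfc, Crls1 and Cct3 for Pdgfd, Josd1 and Ugdh for Pdgfra, and Srgap3 and Cdk14 for Pdgfrb, at differences of 0.011 to 0.066. The number of genes close to a member differed, with 1529 genes within 0.1 of Pdgfb, 1412 of Pdgfa, 1269 of Pdgfd and 632 of Pdgfra. Pdgfrb, which varied more, had 231 and Pdgfc had 5. These counts are a description only. For Pdgfc, Nos2 (inducible nitric oxide synthase) came second after Grin2c, at a difference of 0.066 against 0.056. It measured 12.53, 17.26 and 22.81 CPM without Cre and 24.98, 18.18 and 20.74 CPM with it.

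Around the ligands, the proteases and binding proteins that process or hold PDGF gave no call among 10 genes tested by edgeR (0 at an unadjusted p under 0.05, against 5.83% of all genes). Of these, 9 had a log2 fold change above 0, against 51.2% of all genes, with a list median of 0.13 against 0.006 over all genes and 0.10 without Cre negative 1. St14 (matriptase, a membrane protease that can cleave the C and D chains) had the highest value, 0.46 (SE 0.25, adjusted p = 0.714, edgeR). It measured 1.81, 2.38 and 3.55 TPM without Cre and 3.86, 3.19 and 3.97 TPM with it, with overlapping groups, and its log2 fold change was 0.29 without Cre negative 1. Pcsk5, a proprotein convertase, had the lowest value at −0.12 (SE 0.17, adjusted p = 0.839, edgeR). Its levels were 3.1, 2.08 and 2.29 TPM without Cre and 1.97, 2.2 and 2.34 TPM with it, and without Cre negative 1, its highest ventricle, the value was −0.001.

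Downstream of the receptors, 28 genes of the adaptor, PI3K, Src, STAT and MAP kinase arms were tested by edgeR, with 0 called and 0 at an unadjusted p under 0.05, against 5.83% of all genes. Values above 0 were found for 14 of them, against 51.2% of all genes, and the median was −0.005. The Cre positive ventricles all lay above the Cre negative ones for 3 of the 28, against 7.55% of all genes, and all lay below them for 1 of the 28 (the adaptor gene Gab1, named after its values were seen), against 6.85% of all genes. Src, a kinase that docks on the activated receptors, was highest at 0.25 (SE 0.11, adjusted p = 0.714, edgeR), with 8.68, 10.94 and 10.8 TPM without Cre and 13.82, 12.94 and 12.24 TPM with it. It was one of the 3. Pik3r1, the regulatory subunit of PI3K, was lowest at −0.46 (SE 0.21, adjusted p = 0.714, edgeR), with 33.12, 24.43 and 21.13 TPM without Cre and 18.74, 22.37 and 20.88 TPM with it. Its value was −0.17 without Cre negative 1, where its level was highest.

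Genes that end receptor signalling gave 0 calls among 12 tested by edgeR, with 2 at an unadjusted p under 0.05, against 5.83% of all genes. Of the 12, 10 had a log2 fold change above 0, against 51.2% of all genes, and 7 did without Cre negative 1. Groups did not overlap for 2 of the 12, both higher with Cre, against 7.55% of all genes. Cbl, the ubiquitin ligase that sends activated receptors to degradation, was highest at 0.36 (SE 0.11, unadjusted p = 0.0133, adjusted p = 0.714, edgeR). It measured 3.48, 4.2 and 4.83 TPM without Cre and 5.48, 6.33 and 5.55 TPM with it, so every Cre positive value was above every Cre negative one, and without Cre negative 1 the log2 fold change was 0.29. The other was Dusp6, a phosphatase of ERK that ERK signalling itself induces, named after its values were seen. Its levels were 23.65, 23.75 and 27.47 TPM without Cre and 30.59, 33.71 and 31.02 TPM with it, with a log2 fold change of 0.23 (SE 0.09, unadjusted p = 0.03, adjusted p = 0.714, edgeR) and 0.24 without Cre negative 1. Spry2, a feedback inhibitor of receptor tyrosine kinases, was lowest at −0.11 (SE 0.13, adjusted p = 0.809, edgeR), with 18.37 to 20.74 TPM without Cre and 18.49 to 22.53 TPM with it. Without Cre negative 1 it was −0.05, and the mean TPM of 19.61 without Cre and 19.9 with it did not share its sign.

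Among 9 early response genes, which growth factors induce within minutes to hours, edgeR called 0, with 1 at an unadjusted p under 0.05, against 5.83% of all genes. Of the 9, 7 had a log2 fold change above 0, against 51.2% of all genes, and 8 did without Cre negative 1. Groups did not overlap for 2 of the 9, both higher with Cre, against 7.55% of all genes. Myc was highest at 0.31 (SE 0.11, unadjusted p = 0.0249, adjusted p = 0.714, edgeR), with 21.39, 19.82 and 25.72 TPM without Cre and 29.54, 31.11 and 29.47 TPM with it. It was one of the 2, and without Cre negative 1 its log2 fold change was 0.33. Fosb was lowest at −0.22 (SE 0.28, adjusted p = 0.818, edgeR), with 36 to 61 counts per library and overlapping groups, and was −0.10 without Cre negative 1.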

How the data were processed

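Per the labels, RNA was extracted with TRIzol and libraries were prepared by BGI Americas; the submitters' processing notes name Bowtie2 2.2.5, RSEM 1.2.12 and GRCm38.p6. The authors deposited estimated counts, without normalization, of which 11.46% are not whole numbers. They also deposited TPM values, which sum to 1000000 per ventricle, and FPKM values, both scaled to length and depth by the authors. The deposited comparison of genotypes (fold changes, p-values, q-values) was not used. Libraries held 13177888 to 14827579 counts, so that 3 counts are 0.202 to 0.228 CPM.

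After rounding, the counts were tested in edgeR 4.0.16 (R 4.3.3) with filterByExpr (minimum count 10, total 15), TMM scaling, the quasi-likelihood test without covariates and Benjamini-Hochberg adjustment over 13817 genes (threshold 0.05). The test was tested on simulated data. Levels of single genes were compared by exact permutation. DESeq2 1.42.0 and limma 3.58.1 on log2(TPM + 1) and log2(TPM + 0.1) were alternatives. Positions and promoter windows came from RefSeq on GRCm38.p6. Figures were drawn with matplotlib 3.10.9.

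Members and lists were chosen with earlier results of these data known. Named were the members, Yap1, Wwtr1 and Postn, the called genes and both extremes of each pathway list, and the 2 genes most like each member; Gbp2b, Gab1, Dusp6, Kit, Flt4, Pdgfrl, Scgb1a1 and Pf4 were added after their values were seen. Counts do not state strand, and errors given for counts cover counting only.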

Additional observations from a re-analysis of the deposited data

How the results depend on the processing

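With 3 mice per group and 1 gene called in all, small changes in these members were not detectable. Over 14 alternatives none of the 6 members was called. The log2 fold changes of Pdgfa, Pdgfb, Pdgfc and Pdgfra stayed above 0 in all 14, and the unadjusted p of Pdgfb was under 0.05 in 5. Pdgfd turned above 0 with limma on log2(TPM + 1) (0.107) and log2(TPM + 0.1) (0.121), and in mean log2 TPM (0.122), where the median of all genes shifted to 0.11 and 0.12. With 1 ventricle left out, Pdgfd ranged from −0.0902 to 0.0384 and Pdgfrb from −0.0235 to 0.328, with both signs turning without Cre negative 1 (Pdgfd 0.0273). The number of genes called was 5 with DESeq2 (Gbp2b, Gm4724, Plod2, Rpl34-ps1 and Zfp965), 2 with limma under either pseudocount (Gbp2b and Zfp965), and 0 to 2 with 1 ventricle left out. Without the division by length, CPM in place of TPM gave shares of 24.8% for Pdgfa, 58% for Pdgfb, 9.45% for Pdgfc and 7.75% for Pdgfd.

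Replicate numbers were shared by the groups, but same-numbered ventricles deviated together with correlations of 0.35, 0.07 and −0.03, and not every ventricle correlated best with its own number. With the replicate block, 0 genes were called (1217 at an unadjusted p under 0.05), no member was, and 5 of 6 members stayed above 0.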

Other observations

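Growth factors and receptors related to the PDGF family by structure, the VEGF group and the ligands and receptors of the Kit, Csf1r and Flt3 class, gave no call among 15 genes tested by edgeR, with 2 at an unadjusted p under 0.05, against 5.83% of all genes. Of the 15, 9 had a log2 fold change above 0, against 51.2% of all genes, and groups did not overlap for 3, all higher with Cre, against 7.55% of all genes. Flt3, a receptor of dendritic cells and early progenitors, had the highest log2 fold change, 0.66 (SE 0.37, adjusted p = 0.714, edgeR), on only 6 to 22 counts per library, and 0.44 without Cre negative 1. Vegfb was lowest at −0.27 (SE 0.16, adjusted p = 0.714, edgeR), and at −0.12 without Cre negative 1, where its level was highest. It measured 581.4, 504.7 and 464.6 TPM without Cre and 510.2, 413.2 and 476.6 TPM with it, and was thus far more abundant than any PDGF ligand in these ventricles.

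The 2 genes that passed the unadjusted threshold were named after their values were seen. Kit, the receptor of stem cell factor, measured 2.78, 5.12 and 4.99 TPM without Cre and 6.04, 8.83 and 5.77 TPM with it, a log2 fold change of 0.57 (unadjusted p = 0.0398, adjusted p = 0.714, edgeR) that was 0.37 without Cre negative 1. Flt4, the VEGF receptor of lymphatic endothelium, measured 11.83, 13.89 and 12.8 TPM without Cre and 14.83, 17.99 and 15.95 TPM with it, a log2 fold change of 0.22 (unadjusted p = 0.0314, adjusted p = 0.714, edgeR) and 0.21 without Cre negative 1. For both, every Cre positive value was above every Cre negative one, and neither passed after adjustment. Pdgfrl, a receptor-like gene without a kinase domain, also named after its values were seen, was lowest in Cre negative 1 (12.15 TPM against 23.92 to 34.1 elsewhere), with a log2 fold change of 0.41 that was 0.16 without that ventricle.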
